A study of Homo sapiens with 8 samples.

Results

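The comparison described here is that of sorafenib-resistant (SR) with parental (WT) Huh7 cells, taken within each replicate number, and it rests on the 4 libraries labelled Huh7 of the 8 libraries in the series. Pair 1 is Huh7 SR replicate 1 minus Huh7 WT replicate 1, and pair 2 is Huh7 SR replicate 2 minus Huh7 WT replicate 2. Huh7 is an established human hepatocellular carcinoma line. The WT cells are the sorafenib-sensitive controls. The SR cells, labelled as treated with sorafenib, were derived by growth in a rising concentration of the drug. Resistance and exposure to the drug therefore cannot be told apart in these libraries. All 4 libraries carry the same batch label, and the labels do not say whether the 2 replicates came from separate cultures, so the p-values measure only the spread between these libraries. The other 4 libraries are HepG2 WT and HepG2 SR, also 2 of each, and are used only for comparison.

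Sorafenib is a multikinase inhibitor that blocks RAF kinases and receptor tyrosine kinases of angiogenesis. Hepatocytes secrete albumin, clotting factors and apolipoproteins under the control of factors such as HNF4A and CEBPA, and liver cancer lines keep part of that program. When amino acids run short or the endoplasmic reticulum is loaded with unfolded protein, the kinases that act on the initiation factor eIF2 raise translation of ATF4, which switches on amino acid transporters, tRNA synthetases and the stress factors DDIT3 and ATF3. Genes of DNA replication are induced at entry into S phase, largely by E2F factors, and genes of mitosis peak later, in G2.

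The 2 replicates did not have the same expression profile, and this bears on every value below. Pearson's r of log2(FPKM + 1) across all genes, which are not independent replicates, was 0.986 between WT 1 and SR 1 and 0.968 between WT 2 and SR 2, but 0.911 between the WT libraries and 0.914 between the SR libraries. Huh7 WT 2 had r from 0.967 to 0.969 with HepG2 WT 1, HepG2 WT 2 and HepG2 SR 1, and Huh7 SR 2 had r from 0.979 to 0.990 with them. Huh7 WT 1 and SR 1 had r from 0.904 to 0.922 with the same 3 libraries, and HepG2 SR 2 was closer to them, with 0.921 and 0.932, than to Huh7 WT 2 and SR 2, with 0.907 and 0.916. The libraries labelled Huh7 replicate 2 thus lay nearer to most HepG2 libraries than to Huh7 replicate 1. Whether a sample or cell line was exchanged could not be settled from these values, so the labels were kept, and "Huh7 pair 2" and the HepG2 pairs below are the libraries so labelled. Of 14145 genes tested, 4846 differed by at least 1 on the log2(FPKM + 1) scale between the WT libraries and 4465 between the SR libraries, more than the 762 of pair 1 or the 2151 of pair 2.

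Marker genes show the same split. ALB, which encodes albumin, was listed at 12 FPKM in WT 1, 42.3 in SR 1, 604 in WT 2 and 2891 in SR 2. KRT19, a keratin of bile duct and progenitor cells, was at 1.78, 2.37, 155 and 178 FPKM in the same order. Of the other biliary and progenitor markers, EPCAM, SOX9 and SPP1 were also higher in replicate 2. KRT7 was mixed, at 0.551, 0.472, 4.75 and 0.203 FPKM, and CD24 ran the other way at 284, 266, 5.76 and 5.14 FPKM. So did the hepatocyte marker FGB, the beta chain of fibrinogen, at 380, 327, 0.386 and 2.95 FPKM. Of 12 hepatocyte markers, 11 reached 1 FPKM in WT 1, SR 1 and WT 2, and 12 did in SR 2. The summed level of 6 fibroblast and stellate markers was between 0.732 and 2.63 FPKM, and that of 4 endothelial markers between 0.772 and 4.52 FPKM, with KDR at 0 in all 4 libraries. The immune markers PTPRC and CD3E were at 0 in all 4, and LYZ, which encodes lysozyme, made up nearly all of the immune sum. Between 12978 and 13330 genes reached 1 FPKM per library. The commonest ratio of low values placed the depth of SR 1, WT 2 and SR 2 at 76.6%, 80.9% and 84.4% of that of WT 1. FPKM (fragments scaled to transcript length and library total) hold no read totals, so no counting interval is given.

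Changes were counted first in each pair by itself, as the difference in log2(FPKM + 1), with 1 library per arm and therefore no test. In pair 1, 436 genes (3.08% of those tested) were higher in SR by at least 1 and 326 (2.3%) were lower. In pair 2, 997 genes (7.05%) were higher and 1154 (8.16%) were lower. The median change over all genes tested was 0.00 in pair 1 and -0.13 in pair 2. Across genes the 2 sets of changes had a Pearson r of 0.21, and 55.2% of genes had the same sign in both.

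Both pairs were higher by at least 1 for 116 genes (0.82% of those tested), which is 26.6% of the genes higher in pair 1 and 11.6% of those higher in pair 2. Both were lower for 63 genes (0.445%), which is 19.3% and 5.46% of the genes lower in each pair. A further 58 genes (0.41%) moved by at least 1 in opposite directions, 27 of them higher in pair 1 and lower in pair 2. The 2 Huh7 pairs share no library.

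**Figure D1:**
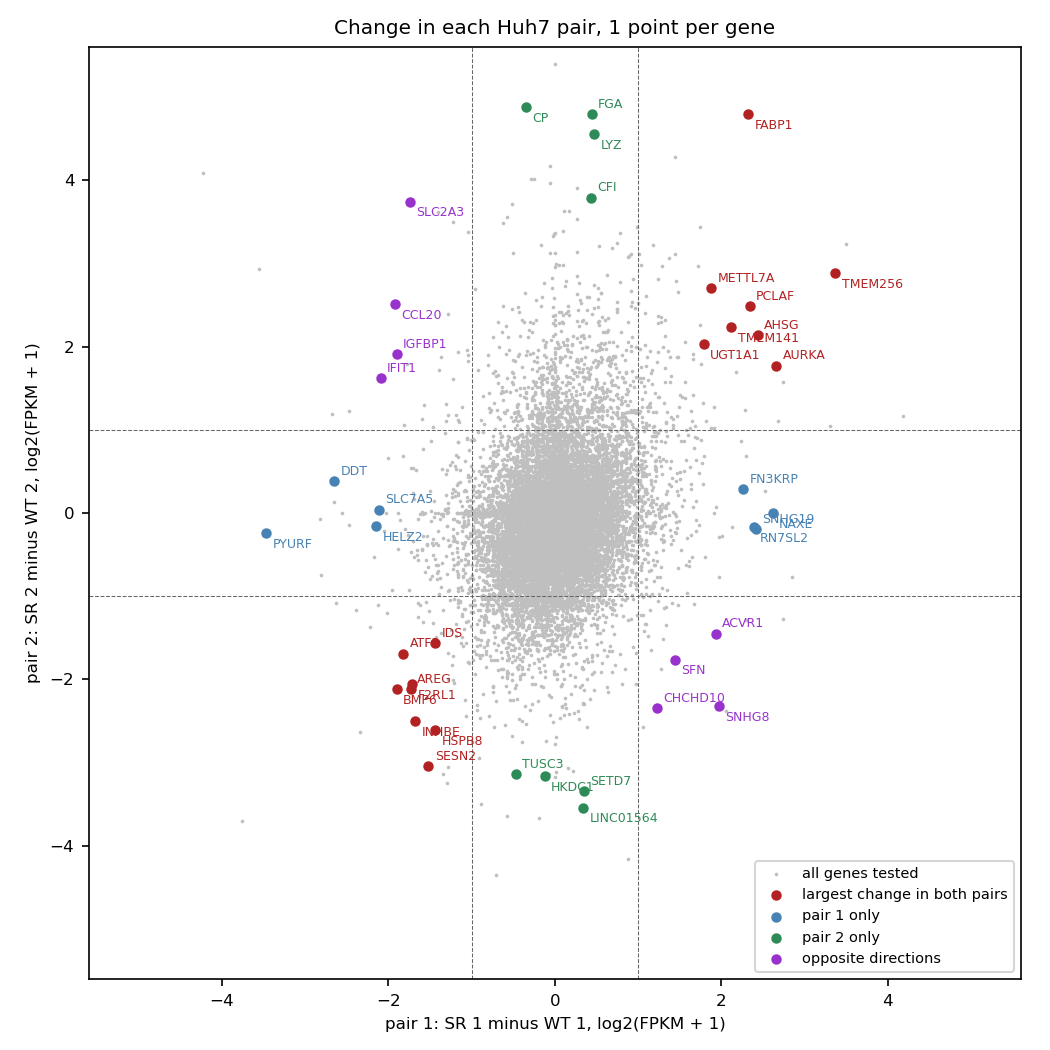
Change in pair 1 (horizontal axis) against change in pair 2 (vertical axis), both as SR minus WT on the log2(FPKM + 1) scale, with 1 grey point for each of the 14145 genes tested, coloured points for the named genes and dashed lines at a change of 1. The cloud is taller than wide, and 116 genes lie in the upper right corner against 63 in the lower left and 58 in the 2 opposite corners.

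The paired test was a limma fit with replicate number as a block. At the thresholds of the study, an unadjusted p under 0.05 with a log2 change of at least 0.5, 635 genes (4.49% of those tested) were called higher in SR and 557 (3.94%) lower. After rescaling to TPM the split turned to 578 higher and 874 lower, and without the replicate block 120 genes were called. A fit of all 8 libraries with a block for each pair called 684, and 11 of 66 named and called genes lost their call in it, among them UGT1A1, DUSP5, PTGS2, CA9 and CDKN1A. Only 2 genes (0.0141%) had a Benjamini-Hochberg adjusted p under 0.05. "Called" below means the thresholds of the study, and apart from those 2 the genes named below had adjusted p-values of at least 0.0749 in that limma fit. All 116 and all 63 genes that moved by at least 1 in both pairs were called, and since the same values chose them this is no separate evidence.

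The 2 genes past the adjusted threshold in the limma fit were both read-through identifiers, which join neighbouring genes and share exons with each. RPL17-C18orf32 was at 0 FPKM in WT 1 and WT 2, 10.3 in SR 1 and 8.35 in SR 2. Its partner RPL17, a ribosomal protein of the large subunit, was at 332, 549, 547 and 421 FPKM in WT 1, SR 1, WT 2 and SR 2. The other partner, C18orf32, was at 6.67, 5.73, 9.13 and 5.14 FPKM in the same order, and neither was called. RPL36A-HNRNPH2 was at 40.7 and 15.4 FPKM in the WT libraries and at 2.09 and 0.257 in the SR libraries, while RPL36A, at 141, 302, 192 and 235, and HNRNPH2, at 35.2, 54.5, 19.0 and 22.8, were not called. How fragments were divided between such overlapping identifiers is not given in the sources used here.

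Regulatory sequence is shown for 5 genes that stand for the groups described next. The 250 bases before the RefSeq start of each gene (GRCh38.p14) were searched on both strands for 3 motifs: TTTGAA, the core of the cell cycle homology region found at late cell cycle genes, CCAAT, the box bound by NF-Y, and TGATGCAA, a form of the composite element bound by ATF4 with a C/EBP factor. Capitals mark the matches, and a match on the reverse strand appears as its reverse complement. FABP1 (chr2:88128063-88128312, minus strand) and ALB (chr4:73404037-73404286, plus strand) stand for the liver genes, CDC45 (chr22:19479670-19479919, plus strand) for DNA replication, MKI67 (chr10:128126424-128126673, minus strand) for mitosis and SESN2 (chr1:28259268-28259517, plus strand) for the stress genes that were lower.
FABP1: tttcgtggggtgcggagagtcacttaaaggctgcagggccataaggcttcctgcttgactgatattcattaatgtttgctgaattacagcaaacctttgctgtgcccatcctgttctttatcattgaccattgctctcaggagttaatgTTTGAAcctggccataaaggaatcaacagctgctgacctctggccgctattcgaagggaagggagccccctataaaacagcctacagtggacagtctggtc
ALB: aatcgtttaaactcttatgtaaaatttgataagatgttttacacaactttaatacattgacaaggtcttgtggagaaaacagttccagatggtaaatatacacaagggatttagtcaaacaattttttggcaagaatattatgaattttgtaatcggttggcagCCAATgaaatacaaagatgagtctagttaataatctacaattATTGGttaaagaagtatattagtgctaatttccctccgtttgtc
CDC45: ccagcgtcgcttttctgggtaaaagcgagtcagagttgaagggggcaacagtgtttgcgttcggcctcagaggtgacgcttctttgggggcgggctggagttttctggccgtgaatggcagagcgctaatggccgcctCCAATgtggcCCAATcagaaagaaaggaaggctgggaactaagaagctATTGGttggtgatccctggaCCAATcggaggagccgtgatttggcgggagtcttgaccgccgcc
MKI67: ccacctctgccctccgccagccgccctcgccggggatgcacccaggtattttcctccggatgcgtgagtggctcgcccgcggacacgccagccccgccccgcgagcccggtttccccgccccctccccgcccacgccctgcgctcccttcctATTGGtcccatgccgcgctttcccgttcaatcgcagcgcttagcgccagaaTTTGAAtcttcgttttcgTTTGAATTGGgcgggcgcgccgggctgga
SESN2: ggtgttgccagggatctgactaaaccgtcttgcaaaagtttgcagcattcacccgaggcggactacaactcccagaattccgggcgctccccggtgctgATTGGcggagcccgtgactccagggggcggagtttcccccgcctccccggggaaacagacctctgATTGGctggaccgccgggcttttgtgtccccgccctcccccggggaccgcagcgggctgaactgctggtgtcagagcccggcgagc

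FABP1 has 1 TTTGAA match, ALB has a CCAAT match on either strand, CDC45 has 4 CCAAT matches and MKI67 has 2 TTTGAA and 2 CCAAT matches, and one of each share a base. SESN2 holds 2 CCAAT matches and no TGATGCAA in this window. Promoters were matched for 76 of the genes higher in both pairs, and CCAAT was in 36 of them (47.4%), against 15 of 47 (31.9%) for genes lower in both and 35.5% of 10123 promoters of genes tested. TTTGAA was in 18 of 32 mitosis promoters (56.2%) and 1 of 33 DNA replication promoters (3.03%), against 8.2% of the promoters of genes tested. CCAAT was in 75% of the mitosis and 57.6% of the replication promoters. TGATGCAA was in 3 of 32 promoters of the ATF4 list (9.38%), against 0.346%. It was in 3 of 76 promoters of genes higher in both pairs (3.95%) and 1 of 47 lower in both (2.13%). For TTTGAA these counts were 7 (9.21%) and 3 (6.38%). These matches describe the windows and do not show binding.

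Among genes with a mean of at least 5 FPKM, those with the largest shared rise included liver, replication and mitotic genes. FABP1, the fatty acid binding protein of liver, was at 7.18 FPKM in WT 1 and 39.9 in SR 1, and at 2.36 in WT 2 and 92.2 in SR 2. Its paired log2 change was 3.56 ± 0.55 (moderated SE, n = 2 pairs, limma adjusted p = 0.249). The SE after ± is limma's moderated SE, which in the paired fit draws mostly on the spread of other genes. It does not measure how closely the 2 pairs agree, and the FABP1 changes were 2.32 and 4.79. AHSG, the plasma protein fetuin-A, was at 4.61 and 29.5 FPKM in pair 1 and at 663 and 2919 in pair 2, a paired change of 2.29 ± 0.37. Its levels in the 2 pairs did not overlap, but the change was alike, at 2.44 and 2.14. UGT1A1, which conjugates bilirubin, was at 24.2 and 86.2 FPKM in pair 1 and 0.284 and 4.23 in pair 2. UGT1A1 shares its downstream exons with UGT1A4, which was at 0.978, 4.11, 0 and 0.306 FPKM. UGT1A6, which also overlaps it on the same strand, was at 1.12, 1.06, 0.206 and 0.399 FPKM.

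PCLAF, a PCNA-binding factor of replicating cells, was at 9.31 and 51.2 FPKM in pair 1 and 4.61 and 30.5 in pair 2, so that the SR levels did not overlap the WT levels. Its paired change was 2.41 ± 0.34 (limma adjusted p = 0.181). AURKA, the mitotic kinase that matures centrosomes, was at 19.7 and 129 FPKM in pair 1 and 16.8 and 59.6 in pair 2. The SR libraries again lay above both WT libraries, with changes of 2.66 and 1.77 and a paired change of 2.21 ± 0.37 (limma adjusted p = 0.249). TMEM256 was at 0.801, 17.7, 0.991 and 13.7 FPKM in WT 1, SR 1, WT 2 and SR 2, and its smaller change of 2.88 was the largest among named genes that are no read-throughs. TMEM141 (25, 112, 14.1 and 69.9 FPKM) and METTL7A (5.33, 22.2, 2.64 and 22.6 FPKM), 2 less studied genes, followed the same pattern.

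The 8 genes with the largest shared fall included the secreted ligands BMP6 and AREG. BMP6, the ligand by which liver controls hepcidin, was at 16.1 and 3.59 FPKM in pair 1 and 4.29 and 0.213 in pair 2, a paired change of -2.01 ± 0.34 (limma adjusted p = 0.249). AREG, the EGF receptor ligand amphiregulin, was at 142 and 42.2 FPKM in pair 1 and 93.9 and 20.9 in pair 2. Both SR libraries were below both WT libraries for BMP6 and for AREG. F2RL1, a receptor activated by proteases, was at 16.3 and 4.26 FPKM in pair 1 and 73.7 and 16.9 in pair 2, so that the SR level of pair 2 was close to the WT level of pair 1.

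ATF3 was at 17.0 and 4.08 FPKM in pair 1 and 65.8 and 19.7 in pair 2, with changes of -1.82 and -1.69. SESN2, a stress-induced inhibitor of mTORC1, was at 19.6 and 6.18 FPKM in pair 1 and 32.8 and 3.10 in pair 2. INHBE, a secreted activin subunit of liver, was at 12 and 3.06 FPKM in pair 1 and 60.8 and 9.92 in pair 2. HSPB8, a small heat shock protein, went from 10.7 to 3.29 and from 24.4 to 3.14 FPKM, and IDS, a lysosomal sulfatase, from 28.4 to 9.88 and from 14.1 to 4.13 FPKM. The SR and WT libraries did not overlap for SESN2, INHBE, HSPB8 or IDS, and did for ATF3. These genes and those above were chosen by their changes in the same libraries, so a lack of overlap is no separate evidence. The share of all genes without such overlap was not counted. The drug efflux pump ABCB1 was also lower in both pairs, at 24.1 and 8.34 FPKM and at 29.9 and 10 FPKM, a paired change of -1.46 ± 0.34 (limma adjusted p = 0.381).

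**Figure D2:**
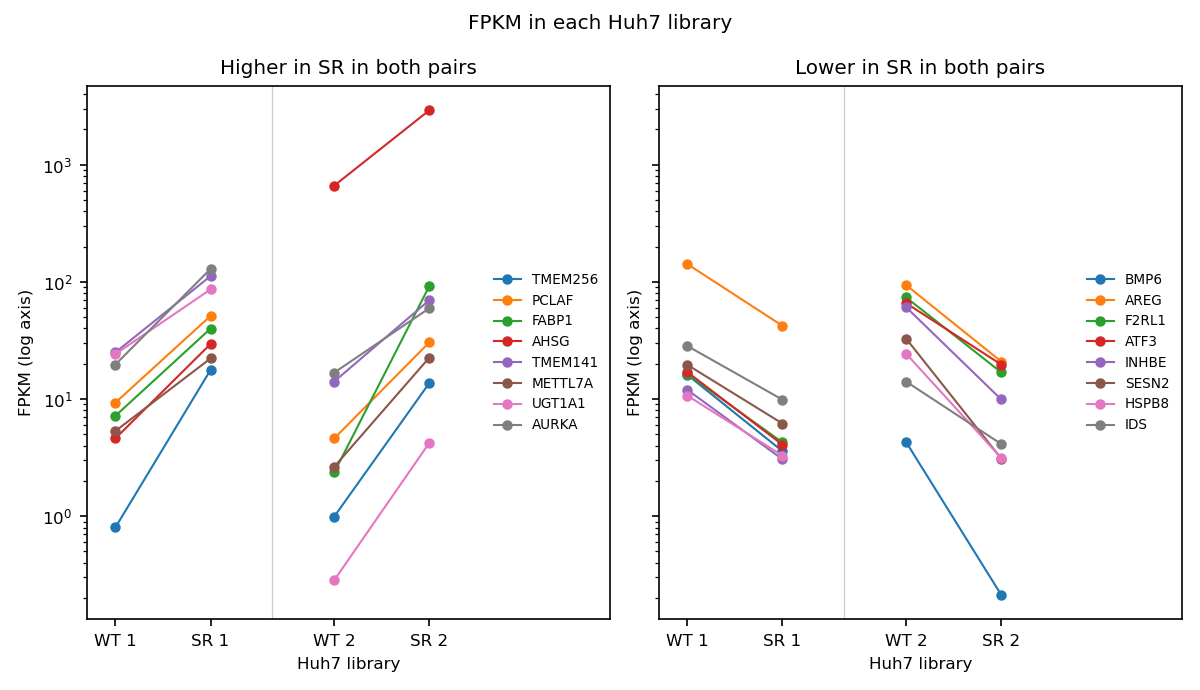
FPKM on a log axis in each Huh7 library for the 8 genes with the largest shared rise (left) and the 8 with the largest shared fall (right), with a line joining WT to SR within each pair. Every line slopes the same way in both pairs, while the levels of AHSG and UGT1A1 differ more between pairs than within them.

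Gene lists were described by their counts and medians. The lists and their members were chosen with earlier results of these data known, so their shares are no separate evidence. In pair 1, 3.08% of all genes tested were higher by at least 1 and 2.3% lower. In pair 2, 7.05% were higher and 8.16% lower, and in both pairs 0.82% and 0.445%. Of 38 DNA replication genes tested, 24 (63.2%) were called higher and 0 lower, against 4.49% and 3.94% of all genes tested, and 14 were not called. Of the 38, 35 were above 0 in both pairs, 19 were higher by at least 1 in pair 1 and 20 in pair 2, and 12 in both. The median change was 1 in pair 1 and 1.07 in pair 2, against 0.00 and -0.13 over all genes tested, while the quartiles were 0.73 and 1.30 in pair 1 and 0.33 and 1.58 in pair 2. CDC45, part of the replicative helicase, was at 5.22 and 17.4 FPKM in pair 1 and 1.52 and 9.44 in pair 2. MCM5, a helicase subunit, had changes of 1.56 and 1.57, and TK1, the thymidine kinase of S phase, of 1.48 and 2.66. RFC2, MCM6 and FEN1 were higher by 1.21, 1.48 and 1.04 in pair 1 and by 0.11, 0.22 and 0.17 in pair 2, and MCM6 went from 14.1 to 41.0 FPKM and from 5.30 to 6.34.

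Mitosis genes were listed without AURKA. Of 37 tested, 35 were higher by at least 1 in pair 2 and 1, FOXM1, in pair 1, with medians of 1.84 and 0.16. The median level of the list was 24.1 FPKM in WT 1, 29.3 in SR 1, 3.78 in WT 2 and 16.5 in SR 2, so the library that stood apart was WT 2. CDK1, the kinase of mitotic entry, was at 47.6, 62.5, 6.86 and 41.5 FPKM in that order, and PLK1 was at 46.2, 42.6, 13.7 and 58.9. FOXM1, a transcription factor of G2 genes, was at 24.1, 51.9, 7.25 and 21.6 FPKM. The paired fit called 19 of the 37 (51.4%) higher and 0 lower. AURKA, with 2.66 in pair 1, changed more in that pair than any gene of the mitosis list, whose highest value there was 1.08. The limma test of the difference between the pairs was past an unadjusted p of 0.05 for 0 of the 37 genes, and for 272 of all 14145. Its spread came from the HepG2 replicates, and for AURKB the difference was -2.50 with an SE of 1.83. The test therefore cannot say whether these genes changed alike in the 2 pairs.

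Of 35 liver plasma protein genes tested, 19 (54.3%) were called higher, 0 lower and 16 neither, beside 4.49% and 3.94% of all genes tested. The medians were 0.44 and 1.51, 10 were higher by at least 1 in pair 1 and 24 in pair 2, and 13 had opposite signs in the 2 pairs. ALB had changes of 1.74 and 2.26, and SERPINF2, the plasmin inhibitor, was at 1.31 and 6.73 FPKM in pair 1 and 4.59 and 59.5 in pair 2. SERPINA1, the elastase inhibitor, was at 54.9 and 157 FPKM in pair 1 and 243 and 652 in pair 2. The fibrinogen chains took another course: FGA was at 594 and 805 FPKM in pair 1 and 0.702 and 46.0 in pair 2, and FGG was at 1047, 730, 3.20 and 53.9 in the same order.

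Of 18 lipoprotein genes tested, 11 (61.1%) were called higher and 1 lower, beside 4.49% and 3.94% of all genes tested, with medians of 0.54 and 1.68. APOA1, the main protein of HDL, was at 17.7 and 60.7 FPKM in pair 1 and 158 and 1240 in pair 2, and APOC3 was at 6.83, 19.3, 8.89 and 82.2. PLTP, which transfers phospholipid between lipoproteins, was the exception, at 2.80 and 0.295 FPKM in pair 1 and 30.9 and 20.5 in pair 2. Of 19 liver transcription factors, 4 (21.1%) were called higher, 0 lower and 15 neither. CEBPA was at 12, 42.9, 14.5 and 27.4 FPKM, and HNF4A at 32.2, 55.7, 22.2 and 50.2, each higher in either SR library than in either WT library. Both were picked from the list by their changes, so this is no separate evidence. These are bulk libraries, so more RNA per cell and more cells with that RNA cannot be told apart.

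Of 38 genes of the amino acid response tested, 18 (47.4%) were called lower, 0 higher and 20 neither, where 3.94% of all genes were called lower. Of the 38, 27 were below 0 in both pairs, 6 of them by at least 1 in both, while 10 had opposite signs and 1 was above 0 in both. The medians were -0.54 and -1.26. ATF4 itself was not called, at 229, 235, 229 and 203 FPKM in WT 1, SR 1, WT 2 and SR 2. DDIT3, which encodes the stress factor CHOP, was at 32.1 and 18.8 FPKM in pair 1 and 43.8 and 9.08 in pair 2, and WARS1, the tryptophan tRNA synthetase, at 90.8, 42.7, 98.6 and 17.4. CEBPB was at 102, 49.3, 124 and 34.8 FPKM. ASNS, which makes asparagine, was at 128, 86.4, 107 and 27.5 FPKM. TRIB3, a pseudokinase of the stress response, was at 19.2 and 16.6 FPKM in pair 1 and 271 and 55.7 in pair 2. SLC38A2, an amino acid transporter, changed direction and went from 300 to 143 in pair 1 and from 115 to 449 in pair 2.

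A list of 30 unfolded protein response genes was added after DNAJB9 and FICD were seen among the largest falls of pair 2, and it is described without a test. Of 29 with enough signal, 20 were lower by at least 1 in pair 2 and 1, HERPUD1, in pair 1, with medians of -1.25 and -0.30. Of all genes tested, 8.16% were lower by at least 1 in pair 2 and 2.3% in pair 1. The median level was 43.4 FPKM in WT 1, 37.8 in SR 1, 110 in WT 2 and 23.8 in SR 2. HSPA5, the main chaperone of the endoplasmic reticulum, was at 392, 199, 695 and 203 FPKM, lower in SR in both pairs. MANF, a secreted stress protein, was at 21.3, 33.6, 203 and 44.8 FPKM, and DNAJB9 at 18.3, 20.6, 66.4 and 7.06, with WT 2 the highest of the 4 in each case. WT 2 was thus the library with the lowest mitotic and the highest unfolded protein response levels of the 4, and the part of this library's state in the changes of pair 2 was not tested.

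**Figure D3:**
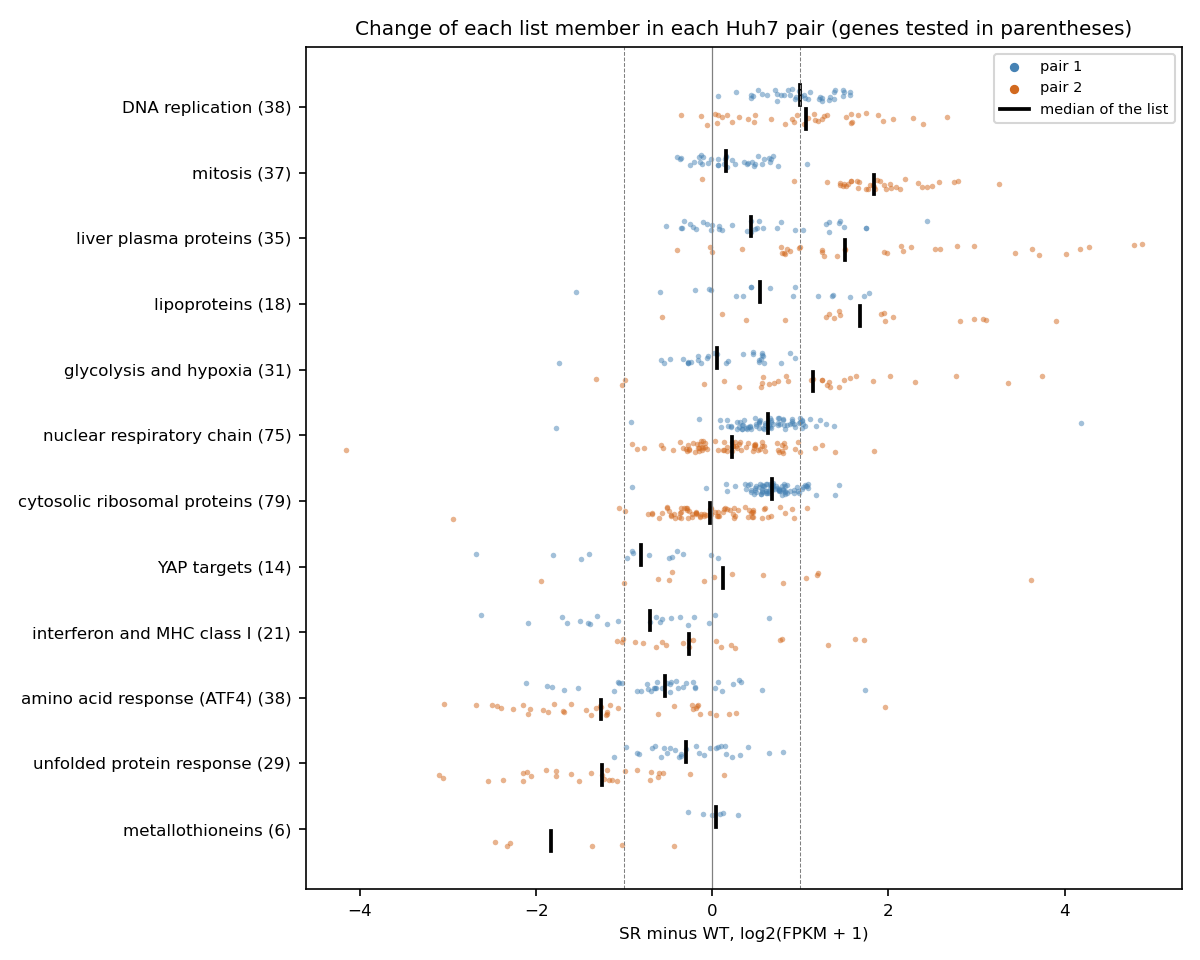
Change of each list member in pair 1 (blue) and pair 2 (orange), as SR minus WT on the log2(FPKM + 1) scale, with black bars at the list medians and the number of genes tested in parentheses. DNA replication has medians of 1 and 1.07, while mitosis has 0.16 and 1.84 and ribosomal proteins have 0.68 and -0.03.

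For other lists the medians of the 2 pairs were unlike. Of 79 cytosolic ribosomal protein genes, the median change was 0.68 in pair 1 and -0.03 in pair 2. The paired fit called 2 higher (2.53%) and 1 lower (1.27%), beside 4.49% and 3.94% of all genes tested, and such small counts do not set the list apart. The median level was 307 FPKM in WT 1, 502 in SR 1, 451 in WT 2 and 420 in SR 2. Nuclear genes of the respiratory chain had medians of 0.63 and 0.22 over 75 genes, with 8 (10.7%) called higher and 1 lower. NDUFB1, a subunit of complex I, was at 22.2 and 53.1 FPKM in pair 1 and 9.14 and 18.8 in pair 2. The 13 genes of the mitochondrial genome had medians of -0.02 and 0.72 and none was called.

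Genes of glycolysis and the hypoxia response had medians of 0.05 and 1.14, and 17 of 31 were higher by at least 1 in pair 2 against 0 in pair 1. Of all genes tested, 7.05% were higher by at least 1 in pair 2 and 3.08% in pair 1. LDHA, which makes lactate, was at 93.3 and 172 FPKM in pair 1 and 46.1 and 231 in pair 2, and CA9, a carbonic anhydrase induced by hypoxia, at 1.05, 2.51, 2.11 and 30.9. The paired fit called 7 of the 31 (22.6%) higher and 1, PFKP, lower, beside 4.49% and 3.94% of all genes tested. The metallothioneins, which bind zinc and copper, were almost absent from pair 1, where 4 of 6 were under 1 FPKM in both libraries and MT2A was at 5.09 and 4.65. In pair 2, 5 of 6 were lower by at least 1, where 8.16% of all genes tested were, and MT1G went from 366 to 65.3 FPKM and MT2A from 595 to 231.

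Of 21 interferon and MHC class I genes tested, 10 were lower by at least 1 in pair 1 and 3 in pair 2, with medians of -0.71 and -0.26. Of all genes tested, 2.3% were lower by at least 1 in pair 1 and 8.16% in pair 2. The paired fit called 6 (28.6%) lower and 0 higher, beside 3.94% and 4.49% of all genes tested. MX1 was at 9.03 and 0.624 FPKM in pair 1 and 6.32 and 2.46 in pair 2, and OAS1 at 34.4, 11.5, 11.7 and 6.30. ISG15, a ubiquitin-like protein, was at 107 and 39.7 FPKM in pair 1 and 77.2 and 65.9 in pair 2. IFIT1 and IFI6 changed direction, with IFI6 at 65.8 and 24.4 FPKM in pair 1 and 2.38 and 10.1 in pair 2.

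Targets of the YAP coactivator had medians of -0.81 and 0.12 over 14 genes, of which 2 (14.3%) were called lower, beside 3.94% of all genes tested. ANKRD1 was at 21.6 and 2.51 FPKM in pair 1 and 26.7 and 62.1 in pair 2, and CCN1 was at 132, 37.0, 16.7 and 36.0. CCN2, a matricellular protein, was at 69.9 and 25.9 FPKM in pair 1 and 5.86 and 83.3 in pair 2, also opposite. AXL, a receptor tyrosine kinase, was lower in both, at 8.72 and 4.91 FPKM and 6.93 and 2.98 FPKM. Of 20 ERK targets, 3 (15%) were called lower and 1 (5%), FOS, higher, where 3.94% and 4.49% of all genes tested were. FOSL1, a partner of JUN, was at 8.02 and 2.81 FPKM in pair 1 and 38.9 and 10.3 in pair 2, while FOS was at 20.4 and 60.5 and at 1.68 and 3.87.

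The remaining lists are read against the 4.49% of all genes called higher and the 3.94% called lower. Fatty acid oxidation had 5 of 31 (16.1%) called higher and 0 lower, among them HADH at 7.75, 19.4, 6.39 and 10.5 FPKM. Fatty acid synthesis had 2 of 17 (11.8%) called higher, of which ACSL4, an acyl-CoA synthetase that favours arachidonic acid, was at 26.7 and 176 FPKM in pair 1 and 34.4 and 75.2 in pair 2. Sterol synthesis had 3 of 25 (12%) called higher and 1 (4%) lower, with medians of 0.61 and 0.09, and TM7SF2, a sterol reductase, went from 18 to 37.8 and from 4.23 to 14.7 FPKM. NRF2 targets had 5 of 25 (20%) called higher and 1 (4%), GCLM, lower. Targets of p53 had 3 of 21 (14.3%) called lower, and CDKN1A, the p21 inhibitor, was at 3.91 and 1.96 FPKM in pair 1 and 163 and 92.2 in pair 2. Keratins and adhesion genes had 4 of 21 (19%) called lower, including LAMB3 at 4.89, 1.51, 5.50 and 0.615 FPKM. CYP and UGT enzymes had 2 of 10 (20%) called higher, and drug transporters had 1 of 13 (7.69%) called lower, ABCB1.

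The study addresses genes tied to ferroptosis and iron. Ferroptosis is an iron-dependent death by lipid peroxidation. Of 31 ferroptosis genes, 2 (6.45%) were called higher and 3 (9.68%) lower, with medians of 0.15 and -0.25. Of 26 iron genes, 3 (11.5%) were called higher and 1 (3.85%) lower, so that the shares higher in the first list and lower in the second lay near the 4.49% and 3.94% of all genes. GPX4, which reduces lipid peroxides, was at 210, 243, 217 and 227 FPKM in WT 1, SR 1, WT 2 and SR 2, a paired change of 0.14 ± 0.40. FTH1, the heavy chain of ferritin, was at 1388, 1327, 1747 and 1043 FPKM. NCOA4, the receptor that takes ferritin to the lysosome, was at 30.9 and 35.0 FPKM in pair 1 and 48.4 and 94.3 in pair 2, a paired change of 0.56 ± 0.36 (limma adjusted p = 0.693). TFRC, the transferrin receptor, was at 186, 235, 95.5 and 89.7 FPKM, and the iron transporter SLC11A2 at 42.6, 32.4, 29 and 35.6. AIFM2 was at 11.7, 13.3, 63.2 and 38.5 FPKM. None of these 6 was called.

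SLC7A11, the cystine importer, was at 6.58 and 7.91 FPKM in pair 1 and 26.5 and 4.19 in pair 2, changes of 0.23 and -2.40. PTGS2, the inducible cyclooxygenase, was at 19.2 and 2.41 FPKM in pair 1 and at 0 in both libraries of pair 2, so its call (limma adjusted p = 0.571) rests on pair 1. Of the other genes the study discusses, DUSP5, a phosphatase of ERK, was at 17.0 and 6.28 FPKM in pair 1 and 21.3 and 1.36 in pair 2, and GRB10, an adaptor of insulin signalling, at 9.60, 4.11, 15.4 and 3.77. Both were called lower, and DUSP5 lost its call in the limma fit of all 8 libraries. LIPH was at 11 and 3.39 FPKM in pair 1 and 0.648 and 0.594 in pair 2, and MYOF, a membrane repair protein, at 8.96, 2.09, 0.191 and 0.341, so both were lower in pair 1 only and hardly present in pair 2. RND3 was at 2.38, 0.871, 0.486 and 0.231 FPKM and did not reach the filter.

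Changes confined to pair 1 by the rule (at least 1 there and under 0.5 in pair 2) comprised 182 genes higher (1.29% of those tested) and 146 lower (1.03%). Of these, 15 and 64 were under 1 FPKM in both libraries of pair 2. NAXE, an epimerase that repairs NADHX, was at 3.89 and 29 FPKM in pair 1 and 11.9 and 11.9 in pair 2. SNHG19 was at 3.65, 23.9, 15.2 and 13.3 FPKM, RN7SL2, a signal recognition particle RNA, at 5.04, 30.7, 13.6 and 12, and FN3KRP, a kinase that removes sugar adducts from proteins, at 2.75, 16.9, 17.5 and 21.6. For each, WT 1 was the lowest of the 4 libraries.

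SLC7A5, the transporter of large neutral amino acids, was at 244 and 55.8 FPKM in pair 1 and 104 and 106 in pair 2. HELZ2, an interferon-induced helicase, was at 32.2, 6.46, 5.05 and 4.41 FPKM, with WT 1 the highest. DDT, a relative of MIF, was at 13.7 and 1.33 FPKM in pair 1 and 18.1 and 23.9 in pair 2. PYURF was at 12.7, 0.234, 5.34 and 4.35 FPKM, and PIGY, which overlaps it on the same strand, at 13.4, 27.4, 48.7 and 29.2, so these 2 moved in opposite directions in pair 1.

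Changes confined to pair 2 comprised 590 genes higher (4.17%) and 788 lower (5.57%), of which 150 and 78 were under 1 FPKM in both libraries of pair 1. CP, the copper oxidase ceruloplasmin, was at 89.9 and 70.3 FPKM in pair 1 and 0.770 and 51.2 in pair 2. FGA behaved likewise, as given above. LYZ was at 57.1 and 79.2 FPKM in pair 1 and 44.2 and 1058 in pair 2, and CFI, which inactivates complement, at 3.57, 5.17, 5.97 and 95.5. For CP and FGA, WT 2 was the low library, while for LYZ and CFI, SR 2 was the high one.

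HKDC1, a hexokinase relative, was at 14.9 and 13.6 FPKM in pair 1 and 113 and 11.7 in pair 2. LINC01564 was at 0.639, 1.08, 20.1 and 0.816 FPKM, so WT 2 alone was high for both. SETD7, a lysine methyltransferase, was at 14.3, 18.4, 11.7 and 0.259 FPKM, and TUSC3, a subunit of the oligosaccharyltransferase, at 16.7, 11.8, 12.2 and 0.494, so for these SR 2 alone was low.

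Of the genes that moved in opposite directions, 4 of each kind are named. SNHG8, a long non-coding RNA, was at 3.90 and 18.1 FPKM in pair 1 and 76.9 and 14.6 in pair 2. SFN, the 14-3-3 sigma protein, was at 11.4, 32.6, 88.9 and 25.6 FPKM, ACVR1, a BMP receptor, at 2.21, 11.3, 21.0 and 7.07, and CHCHD10, a mitochondrial protein, at 12.4, 30.4, 30.9 and 5.28. SLC2A3, the glucose transporter GLUT3, was at 334 and 99.6 FPKM in pair 1 and 22.4 and 313 in pair 2. CCL20, a chemokine, was at 285, 74.4, 26.5 and 155 FPKM, IGFBP1, a liver protein that binds insulin-like growth factors, at 842, 226, 207 and 781, and IFIT1 at 14.9, 2.75, 0.123 and 2.44. In each of these 8 but CHCHD10, the SR libraries were closer to each other in level than the WT libraries were.

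**Figure D4:**
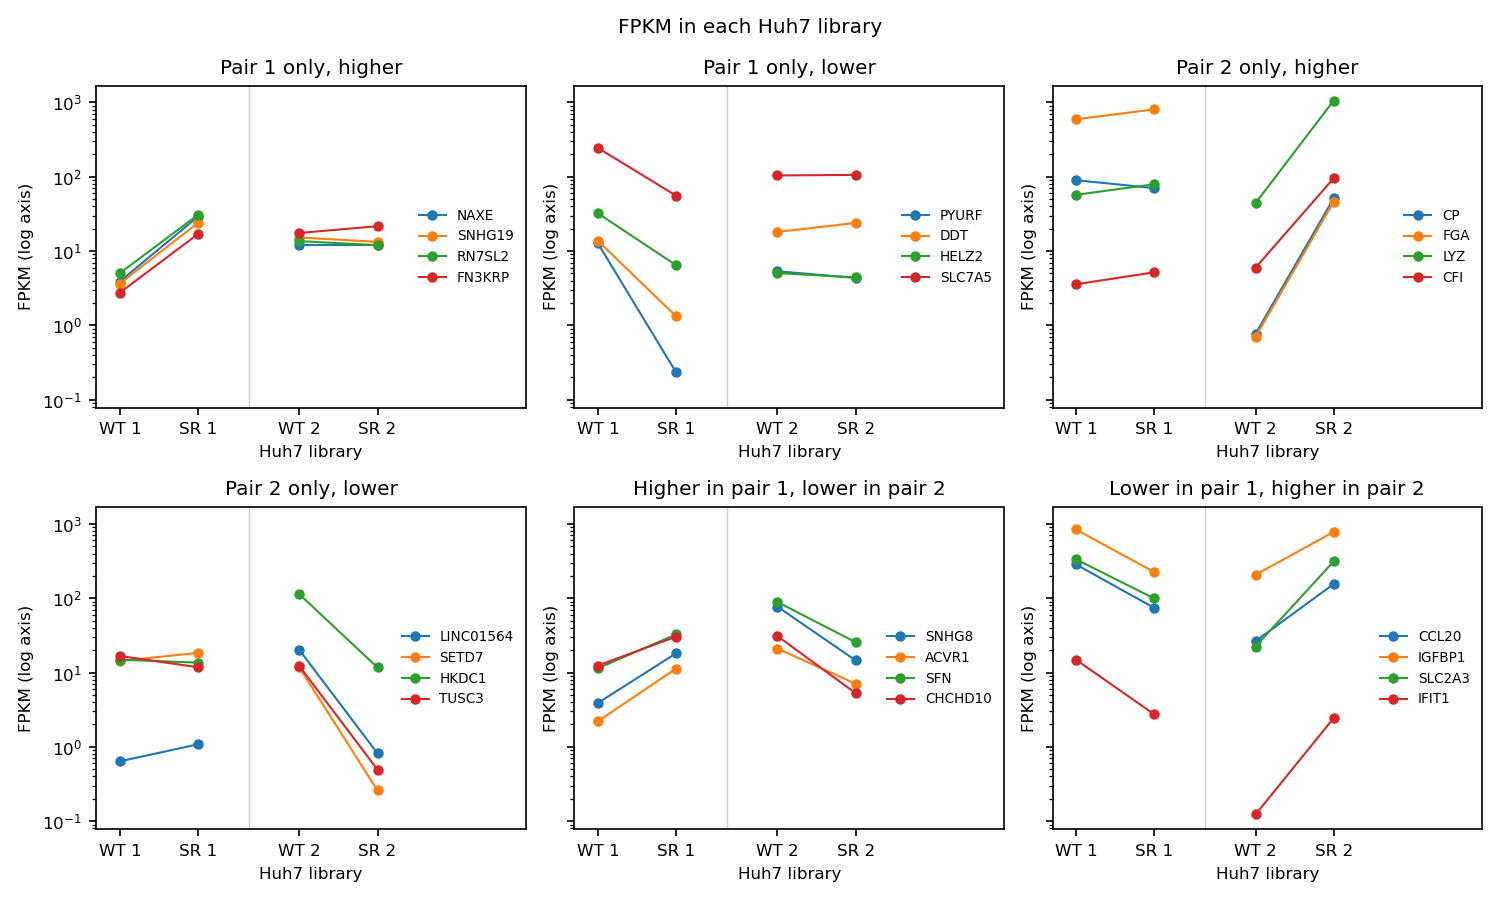
FPKM on a log axis in each Huh7 library for the named genes changed in pair 1 only, in pair 2 only and in opposite directions, with a line joining WT to SR within each pair. Lines are steep in one pair and nearly flat in the other in the first 4 panels, and cross in slope between pairs in the last 2.

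Whether the pairs differed was tested with a limma fit that took its spread from the HepG2 replicates, since each Huh7 pair has 1 library per arm. The difference had an unadjusted p under 0.05 for 272 genes and an adjusted p under 0.05 for 0, and no gene is shown to differ between the pairs. Among those named, the unadjusted p was 0.00132 for LYZ, 0.00339 for SNHG8 and 0.00556 for DDT. For SLC2A3, which differed by 5.48 on the log2 scale between the pairs, the SE of the difference was 5.16, with HepG2 SR 1 and HepG2 SR 2 at 173 and 0.094 FPKM.

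The HepG2 pairs, which share no library with the Huh7 pairs, are given beside them. By the correlations above, the libraries of Huh7 pair 2 lay nearer to those of HepG2 pair 1 than to those of Huh7 pair 1. Whether the comparisons below set 1 cell line against another therefore rests on the labels alone. HepG2 SR 2 is the library that stands apart among the HepG2 libraries, so HepG2 pair 1 is the one without it. In HepG2 pair 1, 41 of the 116 genes higher in both Huh7 pairs were higher by at least 1 (35.3%, against 4.09% of all genes tested), and 20 of the 63 lower genes were lower (31.7%, against 3.38%). In HepG2 pair 2 the counts were 35 of 116 (30.2%, against 12%) and 30 of 63 (47.6%, against 16.1%). In the opposite direction, 22 of the 116 were lower by at least 1 in HepG2 pair 2, where 16.1% of all genes were lower, and 2 in HepG2 pair 1. In both HepG2 pairs, 16 of the 116 were higher by at least 1 (13.8%, against 0.891% of all genes tested) and 16 of the 63 lower (25.4%, against 1.7%).

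PCLAF had HepG2 changes of 2.08 and 1.54 beside 2.34 and 2.49 in Huh7, and AURKA had 3.07 and 1.77 beside 2.66 and 1.77. F2RL1 had HepG2 changes of -2.05 and -2.98, and IDS of -1.47 and -1.50, close to its Huh7 values of -1.44 and -1.56. AHSG had HepG2 changes of 0.44 and -3.59. BMP6 was between 0.133 and 0.215 FPKM in the HepG2 libraries, too low to show a fall there. For neither gene is a difference between the cell lines shown (limma adjusted p = 0.874 for each). The DNA replication list had medians of 1.33 and 0.78 in the HepG2 pairs, and the amino acid response list of 0.30 and 0.05. The limma test of the difference between the cell lines had an adjusted p under 0.05 for 0 genes and an unadjusted p under 0.05 for 476.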

How the data were processed

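Polyadenylated RNA was sequenced in 8 libraries, and the authors deposited FPKM, 1 value per gene and library, which already include scaling for depth and length. The submitters' processing notes name fastp 0.20.0 and GRCh38, and the aligner, quantification tool and annotation are not given in the sources used here. Since FPKM are not counts, log2(FPKM + 1) was tested with limma 3.58.1 in R 4.3.3 (lmFit, eBayes with trend) on the 14145 genes that reached 1 FPKM in 2 or more of the 4 Huh7 libraries. Replicate number was a block, which left 1 residual degree of freedom, moderated by 7.38 prior degrees of freedom. The pairing comes from the rule for this comparison, and the data bear on it: the deviations of WT 1 and SR 1 from their group means correlated at 0.809 across genes. The difference between the pairs was fitted with a mean for each Huh7 library and for each HepG2 group.

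Genes named were the 8 highest and 8 lowest by the smaller pair change among symbols with a mean of at least 5 FPKM that are no read-throughs, 4 in each direction changed in 1 pair or oppositely, genes the study discusses, and up to 3 per list with the largest smaller change. Other list members named for their values were chosen after these were seen. The members and the 24 lists were chosen with earlier results of these data known. Ensembl identifiers were given symbols from a table that named 42338 of 63241, overlaps were taken from GENCODE release 29, and promoters from RefSeq, matched for 59 of 77 genes searched. Counting is not stated to use strand, and 32 of 113 named genes overlap another expressed gene. Data were simulated for all 14145 genes of the Huh7 paired fit, with independent normal noise at each gene's moderated spread. A log2 change of 1 was called in 74.6% of changed genes and a change of 2 in 100%. An adjusted p under 0.05 was reached by 25.4% and 100% of them, and 5.87% of unchanged genes had p under 0.05. In the real libraries FABP1, with a paired change of 3.56, had a limma adjusted p of 0.249, so these rates may not hold there. Alternatives were the fit without the block, with all 8 libraries, other pseudocounts, filters and scalings, other thresholds, and leaving out libraries. Tables and figures were made with Python, pandas and matplotlib. Some genes and 1 promoter motif are not reported here.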

Additional observations from a re-analysis of the deposited data

Results flagged for a closer look

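FOS, an immediate early gene of the AP-1 complex, was flagged because its change had opposite signs in the cell lines, as labelled, in every pair. It was higher in SR by 1.52 and 0.86 in the Huh7 pairs and lower by 1.16 and 2.52 in the HepG2 pairs, on the log2(FPKM + 1) scale. The Huh7 change exceeded the HepG2 change by 3.03 ± 0.62 (SE; limma adjusted p = 0.874), so the difference is not shown. FOS was at 20.4 and 60.5 FPKM in Huh7 pair 1, at 1.68 and 3.87 in Huh7 pair 2, at 30.1 and 13.0 in HepG2 pair 1 and at 30.7 and 4.54 in HepG2 pair 2. With 2 libraries per group, no group was large enough to test a single library as an outlier.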

How the results depend on the processing

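The replicate block decided the number of calls: 1192 genes were called with the pairing and 120 without it, 69 higher and 51 lower. Without the block, 44 of 66 named and called genes were no longer past the threshold, with the same estimates by construction. Fitting all 8 libraries with a block for each pair gave 684 calls, and 11 of the 66 were not among them. No filter gave 776 calls, a log2 change of at least 1, added after the data were seen, 664, and the adjusted p 2. Leaving out each Huh7 library in turn, without the block, gave 339 and 67 calls (WT 1, WT 2) and 222 and 55 (SR 1, SR 2). TPM turned the split of calls from 635 higher and 557 lower to 578 higher and 874 lower, with a median change of all genes of -0.08 in pair 1 and -0.22 in pair 2. At an adjusted p under 0.05, a pseudocount of 0.1 called 27 genes and TPM 4, while quantile normalization, the lower filter, no filter, the fit of all 8 libraries, the fit without the block and eBayes without trend called 0.

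Genes changed alike in both pairs numbered 179, and 395 with a pseudocount of 0.1, 278 with TPM, 1299 at a change of 0.5 and 8 at a change of 2. Genes in opposite directions numbered 58, and 132, 89, 516 and 3 under the same settings. Genes changed in 1 pair numbered 1706, and 1020 with a limit of 0.25 on the other pair. The difference between the pairs passed an adjusted p of 0.05 for 0 genes with either source of spread, and an unadjusted p of 0.05 for 272 or, with the spread of HepG2 WT, 914. Without replicate 1, PTGS2 had a change of 0.00, and without replicate 2 of -2.56. The limits are the 2 pairs, with 1 library per arm, replicates of unlike profile, and values without read counts, so that low FPKM carry an unknown counting error.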
